A study of Mus musculus and Homo sapiens with 22 samples.

Results

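The genes described here are 10 components, targets and zonation markers of the Wnt pathway in liver: Lgr5, Rnf43, Znrf3, Apc, Axin2, Ctnnb1, Tcf7l2, Glul, Lect2 and Tbx3. They were chosen by name, and a PROX1 peak was counted for a gene when its summit, the position of highest signal, lay in the gene body or within 50 kb of it. By that rule 206 of the 105059 peaks in 3 lists belonged to the 10 genes, with 129 of 50159 in mouse liver (0.257%), 57 of 40531 in mouse embryonic fibroblasts (MEFs; 0.141%) and 20 of 14369 in Hep3B cells (0.139%).

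CUT&RUN maps a chromatin protein with an antibody that tethers a nuclease next to it, so that the surrounding DNA is cut free and sequenced. The 22 samples formed 6 groups. Livers of wild-type C57BL/6J mice aged 2 to 3 months, untreated, were probed with an antibody against PROX1 (5 samples) or with nonspecific rabbit IgG (5 samples), so that the factor was the endogenous one. The liver nuclei came from homogenized whole tissue, and the labels call them hepatocyte. Primary C57BL/6N MEFs, transduced with lentivirus for rtTA and a doxycycline-inducible FLAG-tagged mouse Prox1, overexpressed it for 2 days and were probed with a FLAG antibody (3 samples) or IgG (3 samples). Hep3B, an established line from a human hepatocellular carcinoma, carried a puromycin-selected lentivirus for inducible human PROX1, switched on for 2 days before the assay (FLAG antibody, 3 samples, and IgG, 3 samples). The IgG cells carried the same transgenes as the FLAG cells. Liver differed from either culture in tissue, antibody and origin of the factor at once, and these cannot be told apart.

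Each list pooled the antibody samples of 1 group. Hence no value has a spread between replicates, no depth per sample is known and no difference was tested. The lists were not normalized against each other. Their lowest areas under the significance curve were 500 in liver and 200 in the cultures, and the medians of the summit −log10 p given by the authors' peak caller were 12.2 in liver, 5.96 in MEFs and 6.44 in Hep3B. Peaks were therefore ranked within each list by −log10 p, and a peak of percentile 90 stood above 90% of its own list. A promoter peak had its summit within 1 kb of a transcription start site (TSS) of a protein-coding transcript of the gene. As a check of the material, each of 7 hepatocyte marker genes, Alb and Hnf4a among them, carried a promoter peak in liver, against 0 of 7 in MEFs and 0 of 6 in Hep3B. Of 7 fibroblast markers, 7 had one in MEFs, 2 in liver and 2 in Hep3B. None of the 7 Kupffer, 7 stellate and 7 sinusoidal endothelial markers had a promoter peak in liver, and 1 of 7 cholangiocyte markers did (Spp1). Of all protein-coding genes, 26.6% in liver, 55.4% in MEFs and 44.5% in Hep3B had one. In liver, 2 of 7 endothelial windows held a high-ranked peak (Pecam1, percentile 98.1, and Lyve1, 99.6). Stellate and cholangiocyte markers had promoter peaks at 3 and 2 of 7 in MEFs, and at 2 and 3 of 7 in Hep3B. In these cultures Kupffer markers had none, and endothelial markers only Kdr in MEFs. Occupancy is not expression, so these counts do not measure cell content.

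Wnt ligands secreted around the central vein bind Frizzled receptors and LRP5 or LRP6 on neighbouring hepatocytes. The signal halts the destruction complex of APC, AXIN and kinases, β-catenin (the product of Ctnnb1) accumulates, and with TCF7L2 it activates the genes of the pericentral zone. R-spondins bound by LGR receptors strengthen the signal by removing RNF43 and ZNRF3, ubiquitin ligases that clear Frizzled from the membrane. Glul, Axin2, Lgr5, Tbx3, Lect2 and the ligases themselves are known Wnt target genes in liver, some of them as negative feedback, and APC loss turns the periportal zone pericentral. PROX1 is a homeobox factor of hepatocytes and lymphatic endothelium that works with corepressors and nuclear receptors.

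The DNA under high-ranked mouse peaks of these genes shows what the antibody recovered. Each line gives the plus strand from 100 bases before the summit to 100 bases after it, in mm10, the build of both mouse lists. Capitals mark every match, on either strand, to the short words that the sequence comparison further on spells out. The windows at the starts of Lect2 and Fbxl21 were moved by 62 and 50 bp respectively, to leave out untranslated regions. The first set holds the highest liver peak of 4 of the genes, each inside a gene: Rnf43 at chr11:87704286-87704486, Tcf7l2 at chr19:55780145-55780345, Lgr5 at chr10:115579623-115579823 and Ctnnb1 at chr9:120984660-120984860 (mm10), the last within the neighbouring Ulk4.
Rnf43 intron, liver: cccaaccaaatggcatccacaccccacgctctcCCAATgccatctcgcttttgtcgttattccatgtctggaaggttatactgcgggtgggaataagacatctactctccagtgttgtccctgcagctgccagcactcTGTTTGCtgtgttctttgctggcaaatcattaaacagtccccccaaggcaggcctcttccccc
Tcf7l2 intron, liver: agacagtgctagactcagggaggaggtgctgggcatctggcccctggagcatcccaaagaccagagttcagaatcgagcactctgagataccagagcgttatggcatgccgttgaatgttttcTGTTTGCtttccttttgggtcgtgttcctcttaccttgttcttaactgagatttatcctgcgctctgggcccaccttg
Lgr5 intron, liver: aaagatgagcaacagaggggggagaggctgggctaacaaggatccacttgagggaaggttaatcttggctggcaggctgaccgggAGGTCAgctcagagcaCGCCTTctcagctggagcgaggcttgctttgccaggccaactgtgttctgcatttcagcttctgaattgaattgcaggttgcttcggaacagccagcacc
Ctnnb1 downstream, liver: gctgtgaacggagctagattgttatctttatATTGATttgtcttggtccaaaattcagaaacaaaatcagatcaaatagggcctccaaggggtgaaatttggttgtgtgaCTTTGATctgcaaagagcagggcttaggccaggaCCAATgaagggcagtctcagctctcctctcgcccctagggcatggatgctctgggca

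The second set holds peaks at gene starts. It gives Axin2 in MEFs (chr11:108920176-108920376) and the 2 liver promoters of zonated genes, Glul (chr1:153901420-153901620) and Lect2 (chr13:56548503-56548703), all mm10. The windows of Glul and Lect2 were chosen after their values were seen.
Axin2 promoter, MEF: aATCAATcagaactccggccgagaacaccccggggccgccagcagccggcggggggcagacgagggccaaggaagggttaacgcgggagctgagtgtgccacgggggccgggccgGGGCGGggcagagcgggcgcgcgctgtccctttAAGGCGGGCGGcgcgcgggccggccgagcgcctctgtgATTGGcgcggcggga
Glul promoter, liver: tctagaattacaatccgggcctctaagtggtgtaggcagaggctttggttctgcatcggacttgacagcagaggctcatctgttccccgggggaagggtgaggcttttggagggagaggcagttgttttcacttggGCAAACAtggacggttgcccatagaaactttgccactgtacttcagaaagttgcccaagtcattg
Lect2 promoter, liver: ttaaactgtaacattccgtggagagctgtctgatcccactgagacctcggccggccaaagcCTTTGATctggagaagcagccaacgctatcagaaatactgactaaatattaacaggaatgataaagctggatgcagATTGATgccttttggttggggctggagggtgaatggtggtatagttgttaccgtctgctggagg

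The last set holds the highest MEF peak in the windows of Rnf43, Lect2 and Glul, each nearer to the start of another gene: chr11:87778508-87778708 in Tspoap1, in the Rnf43 window, chr13:56522271-56522471 at the Fbxl21 start, in the Lect2 window, and chr1:153895038-153895238 in Teddm2, upstream of Glul. The bases around the highest Tbx3 summit were annotated as untranslated, and the bases of Apc are not shown.
Tspoap1 intron, MEF: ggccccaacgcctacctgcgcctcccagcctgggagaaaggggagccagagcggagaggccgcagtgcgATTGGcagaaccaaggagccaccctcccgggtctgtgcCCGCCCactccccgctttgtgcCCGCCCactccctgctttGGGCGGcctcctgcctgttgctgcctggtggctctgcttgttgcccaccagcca
Fbxl21 promoter, MEF: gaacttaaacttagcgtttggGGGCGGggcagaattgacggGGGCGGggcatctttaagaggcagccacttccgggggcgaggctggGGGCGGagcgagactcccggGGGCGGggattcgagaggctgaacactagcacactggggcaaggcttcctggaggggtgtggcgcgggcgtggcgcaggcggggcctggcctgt
Upstream of Glul, MEF: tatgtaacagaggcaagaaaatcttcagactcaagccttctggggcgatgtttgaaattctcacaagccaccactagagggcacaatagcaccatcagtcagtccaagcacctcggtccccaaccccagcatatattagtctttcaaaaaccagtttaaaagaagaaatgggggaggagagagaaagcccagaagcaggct
The MEF windows at gene starts and in Tspoap1 were GC-rich, from 68.2% at Fbxl21 to 75.1% at Axin2, whereas the liver windows ranged from 47.3% at Ctnnb1 to 55.2% at Lgr5. The MEF window upstream of Glul had 46.8%. Over all peaks of the 10 genes away from their promoters, the median was 47.3% in liver and 50.5% in MEFs.

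Every gene had a peak in its window in liver and in MEFs, and 8 of 10 had one in Hep3B, where the list used here held no summit around LGR5 or CTNNB1. Among all protein-coding genes, 69.1% in liver, 81.2% in MEFs and 71.8% in Hep3B had such a peak. A promoter peak was found at 8 of the 10 in liver, 9 in MEFs and 6 in Hep3B, while 26.6%, 55.4% and 44.5% of all protein-coding genes had one. Glul, Znrf3, Tbx3 and Tcf7l2 had a promoter peak in each list. Both mouse lists held one at 7 genes (a pattern shown by 22.3% of mouse genes), the liver list alone at Lect2 (4.35%), and the MEF list alone at Axin2 and Apc (33.1%). Human AXIN2 and APC also had a promoter peak in Hep3B. These negatives depend on the 1 kb limit at Lect2 in MEFs and at RNF43 in Hep3B, whose nearest summits lay 1048 bp and 1053 bp from a TSS.

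In the lists as deposited, the 10 genes held the most peaks in liver. In liver, the windows of these genes held 73.1 peaks per Mb, and the median over the 10 genes was 73.0 against 18.5 over all protein-coding genes. In MEFs the median was 32.1 against 27.2, and in Hep3B 8.58 against 8.95. Liver held more peaks than MEFs at 7 of the 10 genes, which was so for 34.5% of all mouse genes, and fewer at Tbx3 and Apc, as for 44.2%. Axin2 had 4 in both.

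**Figure D1:**
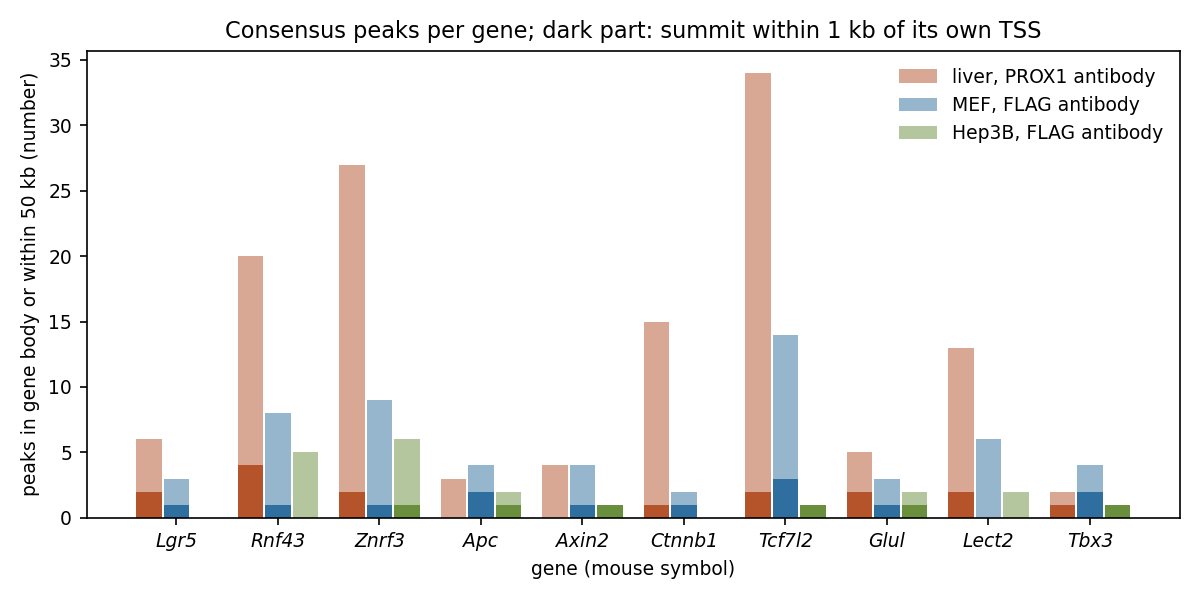
Number of consensus peaks with a summit in the gene body or within 50 kb, for each gene in the liver, MEF and Hep3B lists. The dark part of a bar counts summits within 1 kb of a TSS of the gene. Liver reached 34 peaks at Tcf7l2, 27 at Znrf3 and 20 at Rnf43, while Axin2, Apc and Tbx3 stayed at 2 to 4.

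The 10 genes fell into 2 sets in liver. Tcf7l2, Znrf3, Rnf43, Ctnnb1 and Lect2 had 34, 27, 20, 15 and 13 peaks, and their density exceeded that of 89.7% to 93.7% of protein-coding genes. Lgr5, Glul, Axin2, Apc and Tbx3 had 2 to 6 peaks, at a density above that of 45.7% (Apc) to 69.2% (Glul) of genes. The first 2 are also the longest of the 10, at 192 kb and 169 kb, Lgr5 and Apc span 137 kb and 102 kb, and Lect2 spans 6.04 kb.

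The strongest 5% of each list, 2507 peaks in liver, 2026 in MEFs and 718 in Hep3B, included a peak at 3 of the 10 genes in liver (Rnf43, Tcf7l2 and Znrf3), at 2 in MEFs (Rnf43 and Axin2) and at 1 in Hep3B (ZNRF3). Of all protein-coding genes, 14.4%, 24.7% and 11.7% had one. The MEF peak counted for Rnf43 lay in the neighbouring Tspoap1, 78.7 kb from an Rnf43 TSS. The Hep3B peak counted for ZNRF3 lay 105 bp from the start of the neighbouring KREMEN1 and 85.9 kb from a ZNRF3 TSS. Of the liver peaks, 10 of 129 (7.75%) were in this class. Over all peaks at these genes the median percentile was 51.0 (liver), 48.7 (MEFs) and 53.5 (Hep3B), close to the middle of each list.

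**Figure D2:**
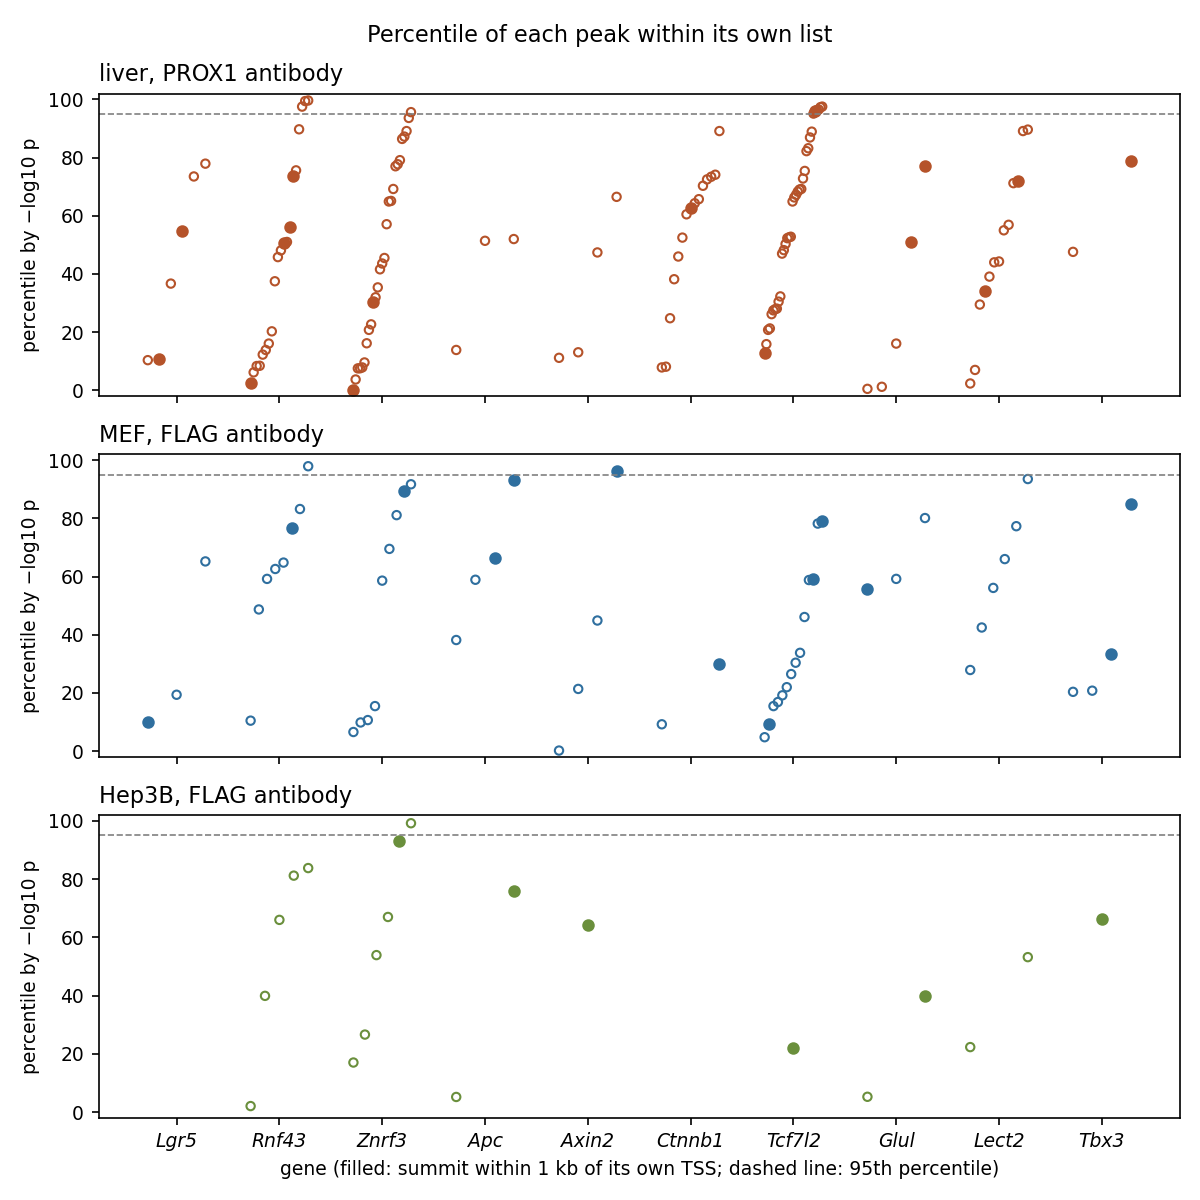
Percentile by −log10 p, within its own list, of every peak at the 10 genes. Filled points are promoter peaks and the dashed line marks the 95th percentile. The highest liver points belong to Rnf43, Tcf7l2 and Znrf3 and are open apart from 1 promoter peak of Tcf7l2. In MEFs the highest points of Axin2, Apc, Tbx3, Ctnnb1 and Tcf7l2 are filled. Those of Rnf43, Lect2, Znrf3, Glul and Lgr5 are open.

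Rnf43 (ENSMUSG00000034177, chr11:87662722-87735539, mm10), the ligase that removes Frizzled receptors, carried the strongest liver peak of the 10 genes. Its summit −log10 p was 25.3, rank 204 of the liver list (percentile 99.6), at chr11:87703725-87705173 in an intron. The next peak, at chr11:87688510-87691771, had a −log10 p of 24.5 (percentile 99.4) and spanned 3262 bp. Another, at chr11:87691937-87693425, reached 21.7 (percentile 97.5), and one of 3165 bp at chr11:87700041-87703205 stood at percentile 89.7. These 4 intervals lay within the same stretch of the gene body, 27.8 kb to 41.7 kb from its start and 1.18 kb to 9.41 kb from an internal TSS. The 4 promoter peaks were weaker, at percentiles 73.7, 56.1, 50.8 and 2.45. In all, 16 of the 20 liver peaks lay in the gene body, and 0 of the 8 MEF peaks did. In MEFs the single promoter peak (−log10 p of 7.16, percentile 76.6) had its summit 13 bp from that of the liver promoter peak it overlapped, and the highest peak of the window (9.50, percentile 97.9) lay in Tspoap1. Hep3B had no promoter peak at RNF43 (ENSG00000108375, chr17:58353676-58417595, hg38). Of its 5 peaks, 4 lay in the gene body, the highest with a −log10 p of 7.74 (percentile 81.2), and the highest of the window (7.92, percentile 83.8) sat 20 bp from the SUPT4H1 start.

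Znrf3 (ENSMUSG00000041961, chr11:5276324-5444847, mm10), the second ligase of this type, had 27 liver peaks, 18 of them in its body. The highest, at chr11:5421584-5422677, had a −log10 p of 20.3 (percentile 95.6), and chr11:5425655-5427507 followed with 19.4 (percentile 93.6), both in introns. The 2 liver promoter peaks were low, at percentiles 30.3 and 0.0339. In MEFs the promoter peak reached a −log10 p of 8.04 (percentile 89.3), again below the highest peak, 29.5 kb upstream, with 8.30 (percentile 91.7), and 0 of the 9 peaks lay in the gene body. In Hep3B the ZNRF3 promoter (gene ENSG00000183579, chr22:28883572-29057488, hg38) ranked at percentile 93.2 with a −log10 p of 8.61. The strongest Hep3B peak of the whole gene set (9.45, rank 111, percentile 99.2) fell in the ZNRF3 window but 105 bp from the start of KREMEN1, a gene for a receptor of the Wnt inhibitor DKK1.

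Lgr5 (ENSMUSG00000020140, chr10:115450311-115587780, mm10), an R-spondin receptor and pericentral target, had 6 liver peaks, all in its body within 8.06 kb of its start. The 2 highest were intronic, with −log10 p of 15.5 (percentile 77.9) and 14.9 (percentile 73.5). Its promoter peaks had 12.6 and 8.96 (percentiles 54.8 and 10.8). In MEFs it had 3 peaks, the highest 5.61 kb upstream with 6.60 (percentile 65.2). The MEF promoter peak was among the weakest of that list at 4.51 (percentile 10.2). Thus Lgr5 had a liver cluster close behind its start and 3 peaks in MEFs, and the Hep3B list used here held no summit in its window.

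Apc (ENSMUSG00000005871, chr18:34220924-34322552, mm10), a scaffold of the destruction complex, was the gene with the weakest highest peak in liver. Its 3 liver peaks lay in the body at percentiles 52.0, 51.4 and 13.9, with none at the promoter. The nearest liver summit lay 3487 bp from an Apc TSS. The MEF list, by contrast, had a promoter peak of 1904 bp with a −log10 p of 8.49 (percentile 93.2) centred 45 bp upstream of the gene. Another lay at an internal TSS (6.66, percentile 66.5). In Hep3B the APC promoter (gene ENSG00000134982, chr5:112707518-112846239, hg38) had a −log10 p of 7.46 (percentile 76.0) with the summit 13 bp from the TSS.

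Axin2 (ENSMUSG00000000142, chr11:108920349-108950783, mm10), the AXIN paralogue widely used as a reporter of Wnt activity, showed the same division. Its 4 liver peaks ranked at percentiles 66.5, 47.4, 13.1 and 11.2, and the nearest summit lay 13047 bp from an Axin2 TSS. In MEFs its promoter carried a peak of 2052 bp with a −log10 p of 9.01 (rank 1551, percentile 96.2), the highest-ranked promoter peak of the 10 genes in that list. The Hep3B window held only the promoter peak of AXIN2 (ENSG00000168646, chr17:65528563-65561648, hg38), with 6.93 (percentile 64.1) and a summit 27 bp from the TSS. None of the liver peaks of Apc or Axin2, all away from promoters, overlapped a MEF peak. In the whole liver list 18.9% of peaks did, and 10.7% of those over 1 kb from a protein-coding TSS.

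Ctnnb1 (ENSMUSG00000006932, chr9:120929216-120960507, mm10) encodes β-catenin. Its 15 liver peaks lay mostly outside the gene, with 4 in the body. The highest (−log10 p of 17.8, percentile 89.1, chr9:120984527-120985286) was in an intron of the adjacent Ulk4, 28.8 kb from a Ctnnb1 TSS, and 5 of the 15 lay in Ulk4. The promoter peak had 13.5 (percentile 62.7). Of the 2 MEF peaks, the promoter peak had 5.25 (percentile 29.8) and the other 4.47 (percentile 9.25). Both overlapped liver peaks, with summits 32 and 75 bp apart. Thus the MEF peaks were in the same places as 2 of the liver peaks, and ranked in the lower part of their list.

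Tcf7l2 (ENSMUSG00000024985, chr19:55741820-55933654, mm10) encodes the main DNA-binding partner of β-catenin in hepatocytes. It had more liver peaks than any of the other 9 genes, 34 with 31 in the body, and 99.5% of protein-coding genes had fewer. Of these, 6 belonged to the strongest 5% of the list, with −log10 p of 21.6, 21.5, 20.8, 20.7, 20.5 and 20.0 (percentiles 97.5 to 95.1). The peak with 20.5, at chr19:55741017-55742231, was the promoter peak, its summit 68 bp from the TSS in the untranslated first exon, and it was the only promoter peak of the 10 genes among the strongest 5% of the liver list. The others lay in introns, the first of them 38.4 kb from the start of the gene. In MEFs the 14 peaks ranked lower. The highest sat at a downstream TSS (7.30, percentile 79.2), and the peak at the first TSS had 6.33 (percentile 59.0). Hep3B had the promoter peak of TCF7L2 (ENSG00000148737, chr10:112950247-113167678, hg38) alone, at 5.55 (percentile 22.0).

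**Figure D3:**
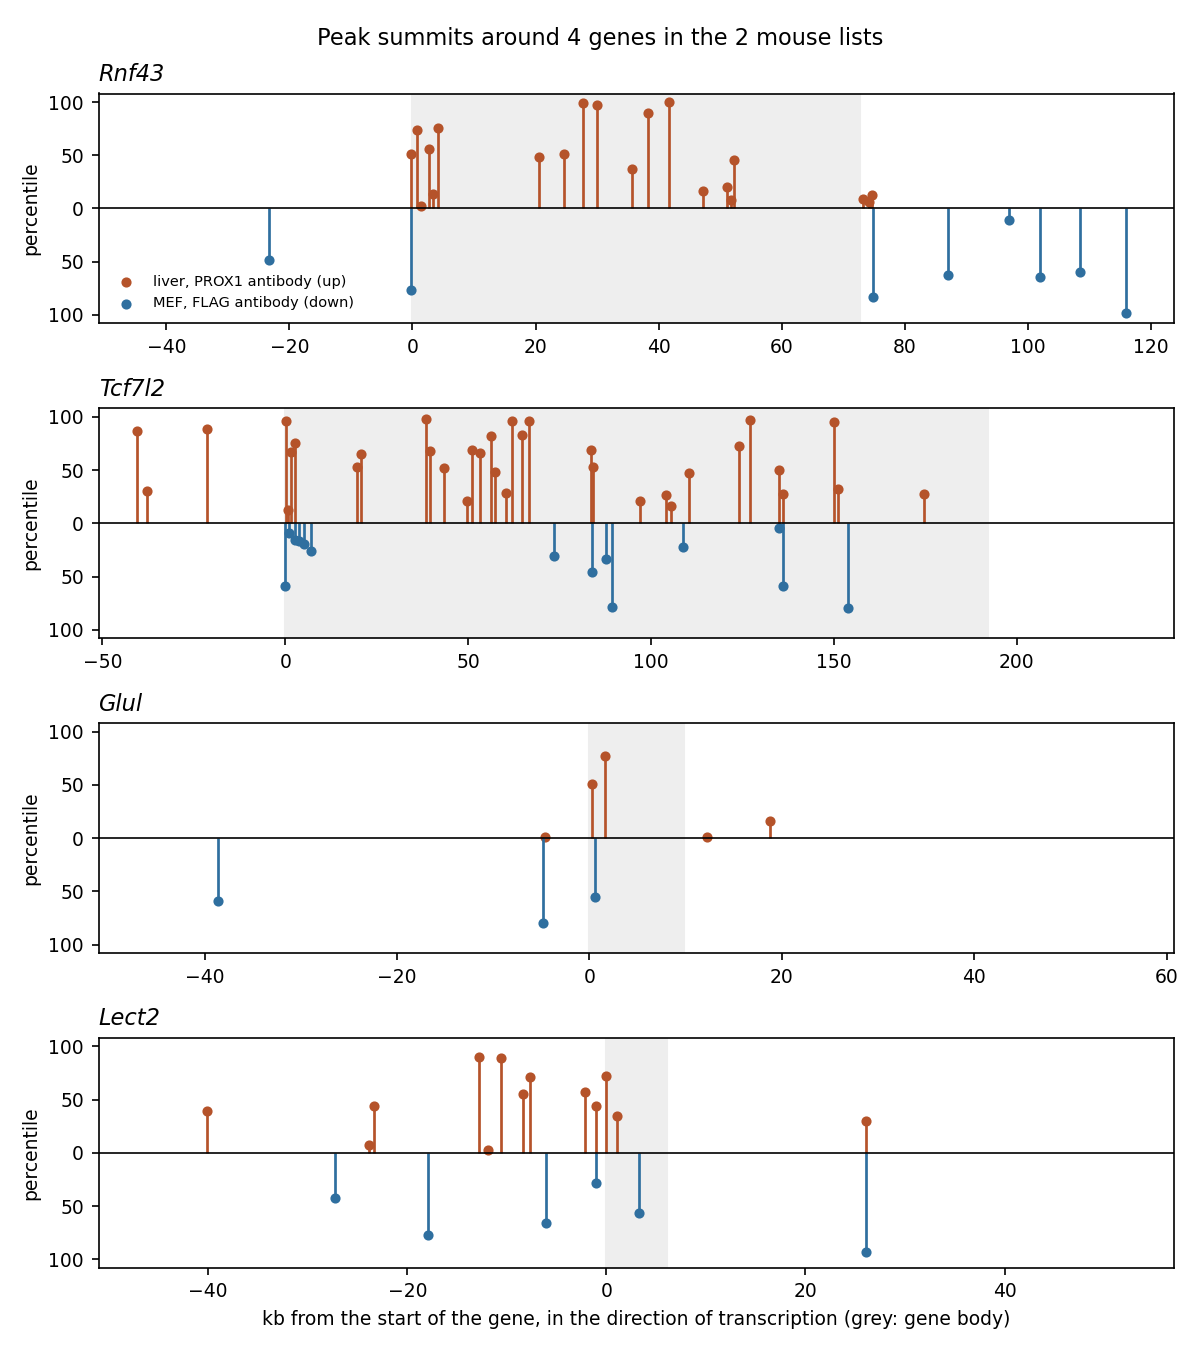
Position of each liver summit (upward) and MEF summit (downward) around Rnf43, Tcf7l2, Glul and Lect2, as distance in kb from the start of the gene in the direction of transcription, with the percentile of the peak as the height of its line. Grey marks the gene body. In Rnf43, 16 liver summits and no MEF summit lie over the grey area, while in Tcf7l2 both do.

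Glul (ENSMUSG00000026473, chr1:153899944-153909723, mm10) encodes glutamine synthetase, the classical marker of the hepatocytes next to the central vein. It had 5 liver peaks, 2 of them at promoters. The higher (−log10 p of 15.4, percentile 77.0, chr1:153901144-153901685) lay in an intron, 404 bp from a TSS of the gene. The other (12.3, percentile 51.0) lay 311 bp from the first TSS and 47 bp from a start of Teddm2. The 3 remaining peaks were near the bottom of the list, at percentiles 16.1, 1.25 and 0.540. In MEFs the promoter peak had 6.20 (percentile 55.7) and overlapped the second liver promoter peak. A peak 4.81 kb upstream ranked higher in MEFs (7.36, percentile 80.1) although it overlapped a liver peak of percentile 1.25. Ranked by area, the order in MEFs was reversed, with the promoter peak at percentile 90.3 and the upstream peak at 9.25. In Hep3B the promoter of GLUL (ENSG00000135821, chr1:182378098-182392206, hg38) had 6.14 (percentile 39.9). Glul was thus occupied at its promoter in each of the lists, at middle ranks by −log10 p.

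Lect2 (ENSMUSG00000021539, chr13:56542464-56548502, mm10), a secreted hepatocyte protein known as a β-catenin target, was, at the 1 kb limit, the only gene with a promoter peak in liver and not in MEFs. The higher of 2 promoter peaks, at chr13:56547727-56548734, had a −log10 p of 14.7 (percentile 72.1) with the summit 39 bp from the TSS, and the other, 969 bp from a TSS, 10.8 (percentile 34.3). Upstream lay a row of further peaks, the highest 12.8 kb and 10.6 kb from the TSS at percentiles 89.6 and 89.1. The gene is short, and 1 of its 13 liver peaks lay in its body. The 6 MEF peaks included none within 1 kb of the TSS. The highest (8.54, percentile 93.5) was 51 bp from the start of Fbxl21, and its summit was 14 bp from that of a liver peak at percentile 29.5. LECT2 in Hep3B (ENSG00000145826, chr5:135922279-135954983, hg38) had 2 peaks, neither at a promoter, at percentiles 53.2 and 22.3.

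Tbx3 (ENSMUSG00000018604, chr5:119670669-119684724, mm10), a T-box repressor that acts downstream of β-catenin, had 2 liver peaks. The promoter peak was 2825 bp wide with a −log10 p of 15.7 (percentile 78.7) and a summit 741 bp upstream of the gene. In MEFs 2 promoter peaks lay within the same stretch, with 7.67 (percentile 84.9) and 5.37 (percentile 33.5), and both overlapped the liver peak. TBX3 in Hep3B (ENSG00000135111, chr12:114670255-114684175, hg38) had only a promoter peak, at 7.02 (percentile 66.2). Ranked by area in place of −log10 p, the wide liver peak stood at percentile 97.2.

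Positions shared by endogenous PROX1 in liver and tagged PROX1 in MEFs were compared on mm10, counting peaks that overlapped by at least 1 bp. Of the liver peaks at the 10 genes, 22 of 129 (17.1%) overlapped a MEF peak, against 18.9% of the whole liver list. The 22 fell to 10 with an area of at least 500 or with summits within 100 bp of each other, and to 1 with lists of equal length, so the splits that follow hold for the lists as deposited. Of the MEF peaks, 21 of 57 (36.8%) overlapped a liver peak, against 21.4% of the MEF list. The rate of sharing was higher at promoters, although most shared peaks lay elsewhere. Among promoter peaks of the 10 genes, 9 of 16 in liver (56.2%) and 9 of 13 in MEFs (69.2%) were shared, and elsewhere 13 of 113 (11.5%) and 12 of 44 (27.3%). In the whole lists, the shares within 1 kb of any protein-coding TSS were 67.6% and 35.7%, and elsewhere 10.7% and 14.7%. The classes differ, since peaks of the 10 genes counted as elsewhere included some at starts of neighbouring genes, such as Supt4a and Fbxl21. Tcf7l2 held 7 of the 22 shared liver peaks, Rnf43 and Znrf3 3 each, Glul, Lgr5, Ctnnb1 and Lect2 2 each, and Tbx3 1. The strong intronic peaks of Rnf43 and Znrf3 were not among them, and of the 10 liver peaks in the strongest 5% only the Tcf7l2 promoter was shared. The median percentile of shared peaks was 47.1 in liver, against 52.3 for the others, and 55.7 against 46.8 in MEFs.

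Most peaks of these genes lay in introns. In liver, 87 of 129 (67.4%) were intronic and 36 (27.9%) intergenic, against 56.5% and 33.4% of the list. In MEFs the shares were 52.6% and 36.8%, against 42.2% and 40.7%, and in Hep3B 55.0% and 25.0%, against 37.7% and 35.1%. The share within 1 kb of any protein-coding TSS was 14.7% in liver (list 14.5%), 33.3% in MEFs (32.0%) and 45.0% in Hep3B (58.3%). Promoter peaks had a median percentile of 66.5 in MEFs and 65.2 in Hep3B, against 43.7 and 46.6 for other peaks, whereas in liver the medians were 52.9 and 51.0. The highest MEF peaks of Glul, Lgr5, Rnf43, Znrf3 and Lect2 were not promoter peaks of the gene.

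The wider pathway was examined with lists of genes drawn up by function. Destruction complex and Dishevelled genes had a promoter peak at 6 of 10 in liver, 10 of 10 in MEFs and 8 of 10 in Hep3B, led by Csnk1a1 (casein kinase 1α; percentile 99.4 in MEFs), Gsk3a (99.5 in Hep3B) and Gsk3b (98.9 in MEFs), the last 2 being the kinases that mark β-catenin for degradation. In liver these promoters stood at percentiles 67.9, 20.1 and 75.1. Receptors counted 6, 12 and 8 of 13, led by the Frizzled genes Fzd4 (97.6 in MEFs), Fzd5 (96.6 in Hep3B) and Fzd7 (95.5 in MEFs). Nuclear effectors counted 7, 11 and 6 of 12, led by Jup, which encodes plakoglobin (98.4 in MEFs), Pygo2, a β-catenin cofactor (98.0), and Tle1, a corepressor (97.8). Ligands and R-spondins counted 2, 9 and 1 of 12, with the highest at Wnt5b (72.6 in liver) and Porcn (68.3 in liver), the enzyme that lipidates Wnt proteins. Wnt inhibitors and feedback genes counted 3, 9 and 3 of 16, led by Kremen1 (99.2 in Hep3B) and Nkd1 (93.2 in MEFs). The Kremen1 peak is the one counted above in the ZNRF3 window. Beside the 26.6%, 55.4% and 44.5% of all genes, destruction complex genes thus stood at 60.0%, 100% and 80.0%, and ligands at 16.7%, 75.0% and 8.33%, as shares without a test.

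Zonation genes had their highest counts in liver. Of 15 pericentral hepatocyte genes beside the 10, 10 had a promoter peak in liver and 5 in MEFs, and of 12 whose symbol was also that of a human gene 2 had one in Hep3B. Of 15 periportal genes the counts were 13 in liver, 3 in MEFs and 4 of 12 in Hep3B. High-ranked pericentral promoter peaks included those of Cyp1a2, a cytochrome P450 (percentile 93.4 in liver), and Nr1i3, the nuclear receptor CAR (91.3). The highest periportal promoter peaks were those of G6pc, the last enzyme of gluconeogenesis (99.3 in liver), Cyp2f2 (95.1) and Pck1 (93.5). Promoter peaks in liver were thus found at genes of both zones, at 66.7% of the pericentral and 86.7% of the periportal ones, beside 26.6% of all genes. Of the pericentral and periportal genes, 9 of 15 each had a peak of the strongest 5% of the liver list in their window, against 14.4% of all genes and 3 of the 10 genes described above. High liver shares were not particular to the zonation lists. Of the 7 hepatocyte markers used as a check, 7 had a promoter peak in liver and 6 a peak of the strongest 5% in their window.

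**Figure D4:**
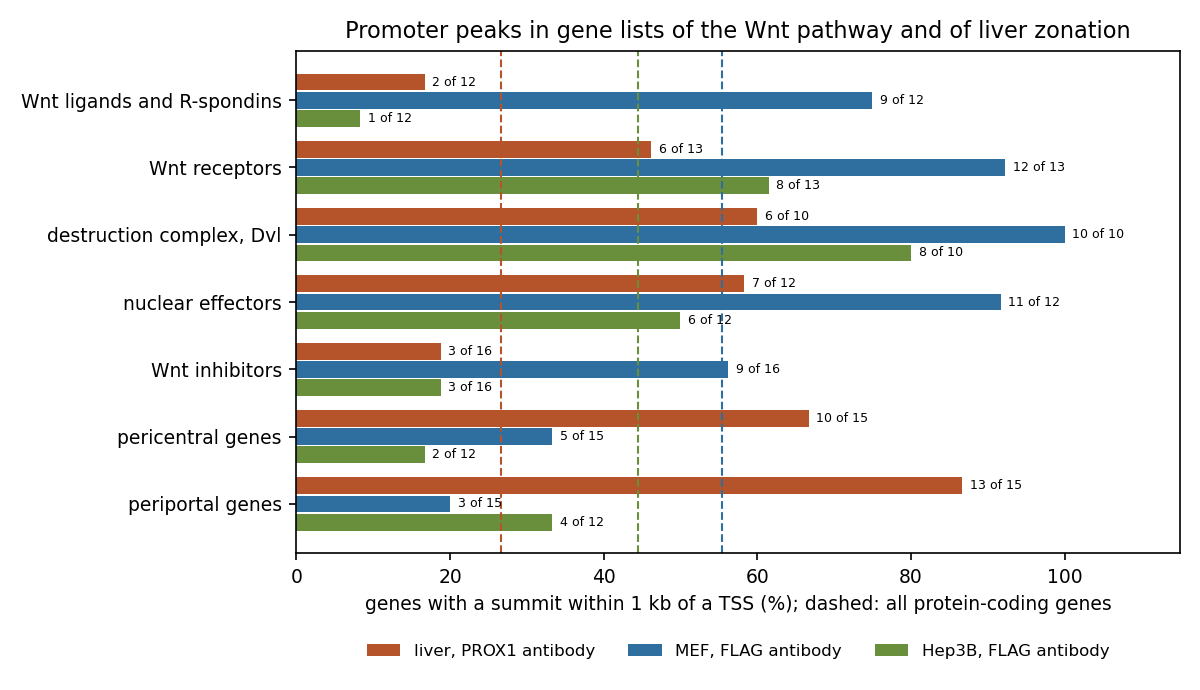
Share of genes with a promoter peak, in percent, for 5 lists of Wnt pathway genes and 2 lists of zonated hepatocyte genes in the liver, MEF and Hep3B lists. Dashed lines in the same colours give the share of all protein-coding genes, 26.6%, 55.4% and 44.5%. Wnt pathway bars are longest in MEFs, with 10 of 10 destruction complex genes, and zonation bars are longest in liver, with 13 of 15 periportal genes.

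The 100 bases on either side of every summit were searched on both strands for short words bound by factors of liver and of the Wnt pathway. They were ATCAAAG or TTCAAAG or TACAAAG or AACAAAG for TCF/LEF, AGGTCA for the half-site of nuclear receptors, CAAAGTCC for HNF4, ATCGAT or ATCAAT for ONECUT factors, TGTTTAC or TGTTTGC or TATTTAC or TATTTGC for FOX factors, AAGACG or AAGGCG for the PROX1 half-site, GGGCGG for the GC box and CCAAT for the CCAAT box. The HNF4 word can share its first 5 letters with a TCF/LEF word, and AAGGCG can overlap GGGCGG, as in the Axin2 window printed above. A match says only that the letters are there.

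A TCF/LEF word lay in 31 of the 129 liver windows (24.0%), against 20.9% of all liver windows. At Lect2 it was in 5 of 13, at Rnf43, Znrf3 and Tcf7l2 in 7 each, and at Glul and Axin2 in none. The printed windows of the Lect2 promoter and of Ctnnb1 hold it on the minus strand, as CTTTGAT. In MEFs 4 of 57 windows (7.02%; list 11.5%) and in Hep3B 6 of 20 (30.0%; list 9.55%) had one. The nuclear receptor half-site was in 35 liver windows (27.1%; list 26.0%), 7 of them among the 15 of Ctnnb1, in 3 windows in MEFs (5.26%; list 11.3%) and in 3 of 20 in Hep3B (list 9.78%). The HNF4 word was in 3 liver windows (2.33%; list 4.13%). FOX words were in 31 (24.0%; list 20.9%) and ONECUT words in 21 (16.3%; list 15.5%). The PROX1 half-site was in 15 liver windows (11.6%; list 6.66%), 8 MEF windows (14.0%; list 8.36%) and 4 Hep3B windows (20.0%; list 14.7%). By place, 3 of 16 liver, 4 of 13 MEF and 3 of 6 Hep3B promoter windows held it, where the lists had 16.4%, 16.5% and 20.1%. Of the other windows, 12 of 113, 4 of 44 and 1 of 14 held it, where the lists had 5.02%, 4.53% and 7.17%. These other windows included starts of neighbouring genes, whereas the list shares were taken away from any protein-coding TSS. The GC box was in 10 liver windows (7.75%; list 8.50%), 14 in MEFs (24.6%; list 23.9%) and 8 in Hep3B (40.0%; list 46.4%). The CCAAT box was in 36 (27.9%; list 26.7%), 22 (38.6%; list 28.1%) and 5 (25.0%; list 29.4%). Median GC content of the windows stood at 47.3% (liver; list 47.3%), 53.2% (MEFs; list 52.7%) and 56.2% (Hep3B; list 61.7%). Windows at 1 gene share a locus, and no test was made of these shares.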

How the data were processed

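PROX1 CUT&RUN was measured in 22 samples, placed in 6 groups by their labels. Per the study's methods, reads were trimmed with Trim Galore 0.6.6, aligned to mm10 or hg38 with Bowtie2 2.4.2, and consensus peaks were called by the authors with Genrich 0.6.1 over the replicates of a group. The calling command names no IgG library, so how IgG entered is not given in the sources used here. The IgG samples were not analysed here. The deposited signal sums the significance curve over a peak. Its summit is described by a deposited −log10 p and a −log10 q. The deposited score, capped at 1000 by the caller, was not used.

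Ends of peaks were compared with chromosome lengths of GRCm38 and hg38. Genes and TSSs came from GENCODE M21 and 44 (21829 and 19663 protein-coding genes), and 8 Hep3B peaks on other contigs entered ranks only. Python 3.11.15, numpy 2.4.6, pandas 2.3.3 and matplotlib 3.10.9 were used, and the placement of peaks was tested on simulated data. With 1 pooled list per group, no test was possible, and counts are set beside those of all protein-coding genes. Named genes were the 10 genes, with their highest peak and promoter peaks in each list, and at most 3 genes per pathway list with the highest-ranked promoter peak. A gene and a sequence that this rule or the choice of windows would have given are not reported here. Cut-offs of distance, q-value, area, length, overlap and list size were varied. The genes, lists and words were chosen with earlier results of these data known.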

Additional observations from a re-analysis of the deposited data

How the results depend on the processing

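Each count of peaks or genes was recomputed under other settings, 62 values in all, and 52 stayed within 1.5 times the reported one. The settings kept within that range were windows of 10 kb or 100 kb around the gene body, promoter windows of 500, 2000 or 5000 bp, any annotated TSS, a q-value below 0.01, a length of at least 200 bp and an overlap of 50% of the shorter peak. The others were as follows. With only the 14369 highest peaks of each list, as many as Hep3B has, liver held 37 peaks at the 10 genes and 5 genes with a promoter peak, MEFs held 19 peaks and 1 liver peak was shared. With an area of at least 500 in every list, MEFs held 26 peaks, Hep3B 10 peaks at 5 genes, and 10 liver peaks were shared. Hep3B held 12 peaks when the nearest TSS had to be that of the gene, and 10 liver peaks were shared when summits had to lie within 100 bp of each other. The cause of these differences was not tested. The highest percentile of each gene in each list was also taken by area, in place of −log10 p. It changed by at most 10 points in 21 of 28 cases and by more in 7, rising in 13 and falling in 14. The highest peak could differ between the rankings. The MEF peak upstream of Glul, highest by −log10 p at percentile 80.1, stood at 9.25 by area, where the promoter peak reached 90.3. No paired analysis was possible because each list pools the replicates of its group, and no replicate could be left out for the same reason. The depth of the samples is unknown, so a missing peak is not a sign that PROX1 was absent.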

Other observations

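Of the peaks in the windows, 15 in liver, 18 in MEFs and 8 in Hep3B lay nearer to a protein-coding TSS of another gene, and some of these neighbours had a peak at their own start. Kremen1, next to Znrf3, had 2 MEF peaks within 1 kb of a start (summits 73 bp and 445 bp away, percentiles 58.6 and 69.5) and the highest Hep3B peak of the windows (percentile 99.2), while the 4 liver peaks nearest to Kremen1 lay 34.5 kb to 57.6 kb from its start. Supt4a, next to Rnf43, had a start peak in each list, at percentile 12.3 in liver (117 bp), 83.2 in MEFs (58 bp) and, for SUPT4H1, 83.8 in Hep3B (20 bp). Srp19, next to Apc, had one in MEFs (186 bp, percentile 38.2) and in Hep3B (153 bp, percentile 5.17). Fbxl21, next to Lect2, had one in liver (37 bp, percentile 29.5) and in MEFs (51 bp, percentile 93.5).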
